A study of Mus musculus with 18 samples.

Results

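NIH3T3 is an established mouse embryonic fibroblast line, and its parental form was profiled here in 9 samples of the 18 in the series. These were all samples whose source label is wildtype with PBS, BSA or IgG. All cells carried the line's own genotype with no introduced gene, grew in medium with 10% calf serum, and were electroporated with 2 pulses of 20 ms at 1400 V. PBS (phosphate-buffered saline) was given alone in 3 samples, bovine serum albumin (BSA) at 7.5 µg in 3, and an antibody (IgG) at 7.5 µg in 3. RNA was taken after 16 h and enriched for polyadenylated molecules. The other 9 samples came from a derived line that carries mouse TRIM21 fused to mCherry and received the same 3 treatments. The profile therefore describes electroporated cells of 1 line, since no cells without electroporation were analysed here. The titles carry the numbers 10, 11 and 14, once in each treatment group, and samples are named below by treatment and number. Nothing in the labels says that the 3 samples of a group came from separate cultures, so p-values measure only the spread between these samples.

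Fibroblasts are the connective tissue cells that make collagen and other extracellular matrix, pull on it through an actin cytoskeleton, and answer growth factors, cytokines and bioactive lipids through surface receptors. Immortal fibroblast lines divide without limit, which is known to go along with loss of cell cycle brakes such as the products of Cdkn2a. Cytosolic antibody is bound by TRIM21, a ubiquitin ligase, whereas antibody outside the cell is bound by Fc receptors that are known mainly from leukocytes. Which of these genes the parental cells expressed, at what level and with what spread between samples, is the main subject here, and contrasts between treatments, title numbers and lines follow it.

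The gene counts per parental sample ranged from 19509017 to 26521824, with a median of 22023923, and 14140 to 14425 of the 24062 genes in the table had a count. A count of 3 corresponded to 0.113 to 0.154 counts per 1000000 gene counts (CPM) in single samples and to 0.0150 CPM over all 9 together. Of the reads given to 1 gene, to several genes or to no gene, 13.1% to 18.8% were given to no gene. This share was highest in PBS 14 and lowest in BSA 10, and where these reads lay was not examined. PBS 14 also correlated least with the others on the log2 CPM scale (mean r of 0.986 across genes, which are not independent replicates, against 0.990 to 0.991 for the other 8). Pairs of samples of 1 treatment differed by a chi-square of 18.4 to 54.2 per degree of freedom, more than counting noise alone.

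A gene was called absent with under 3 counts in every one of the 9 samples and present with at least 10 counts in every one. Under these limits 11464 genes (47.6%) were present and held 99.9% of all gene counts. A further 2521 lay in between, and 10077 (41.9%) were absent, of which 7604 had 0 counts in every sample. Among 20444 protein-coding genes 11043 (54.0%) were present, against 86 of 800 long intergenic noncoding genes. Only 6 of 1109 microRNA genes were present, in libraries enriched for polyadenylated RNA. Levels of different genes are compared below as transcripts per 1000000 (TPM), which divide each count by the annotated exon length. On that scale 131 genes exceeded 1000 TPM and 1765 exceeded 100 TPM. The top 10 genes held 8.62% of the summed TPM, the top 100 held 30.8% and the top 500 held 52.8%.

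The promoters of 6 genes are shown because they span the range from the most abundant messages to absent genes. Each line holds the 100 bases before the RefSeq start on the gene's own strand (GRCm38.p6), in lower case with every CG pair in capitals. Eef2 encodes the translocation factor of translation (chr10:81176531-81176630, plus strand). Atf4 encodes a stress-responsive transcription factor (chr15:80255084-80255183, plus strand). S100a4 encodes a calcium-binding protein named for fibroblasts (chr3:90603670-90603769, plus strand), and Il1rl1 the receptor of interleukin 33 (chr1:40429470-40429569, plus strand). Cdkn2b, a cell cycle inhibitor (chr4:89311033-89311132, minus strand), and Alb, the serum albumin of hepatocytes (chr5:90460770-90460869, plus strand), were absent.
Eef2: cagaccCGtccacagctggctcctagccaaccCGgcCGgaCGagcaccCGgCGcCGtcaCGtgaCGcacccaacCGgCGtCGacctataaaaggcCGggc
Atf4: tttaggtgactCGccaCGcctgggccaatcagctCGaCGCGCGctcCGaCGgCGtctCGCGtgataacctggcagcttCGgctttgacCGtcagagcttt
S100a4: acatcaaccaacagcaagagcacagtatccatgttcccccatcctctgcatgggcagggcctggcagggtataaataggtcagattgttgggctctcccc
Il1rl1: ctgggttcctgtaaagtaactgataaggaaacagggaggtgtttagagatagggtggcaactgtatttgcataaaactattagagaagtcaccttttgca
Cdkn2b: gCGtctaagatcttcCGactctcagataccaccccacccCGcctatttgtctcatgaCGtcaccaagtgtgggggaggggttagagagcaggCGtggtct
Alb: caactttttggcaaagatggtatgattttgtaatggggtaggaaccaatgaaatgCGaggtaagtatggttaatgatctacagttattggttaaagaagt

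Both Eef2 and Atf4 had 13 CG pairs in these 100 bases, and Cdkn2b had 5. S100a4 and Il1rl1 had 0, although both genes were among the abundant messages, and Alb had 1. The Il1rl1 bases lie directly before the outer end of the annotated gene. Which start its transcripts used was not tested, so these bases need not be the promoter behind its level. Over the wider RefSeq windows of 300 bases (250 before to 50 after the start), which 17495 of the 24062 genes had, present genes held a median of 21.5 CG pairs, genes in between 8 and absent genes 4. At least 10 CG pairs were found in 85.5% of the windows of present genes and in 23.9% of those of absent genes. The letters TATAAA on the gene's strand, seen above in Eef2 and S100a4, occurred in 8.51% of all such windows. They occurred in 3.98% of the windows of present genes, 14.5% of those of absent genes and 16.2% of the 74 windows known for the 100 genes with the highest TPM. On either strand the shares were 12.8%, 6.51%, 21.1% and 21.6%. These shares describe letters and not sites, and a symbol with several starts was given its first listed window.

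The most abundant messages belonged to translation, to small calcium-binding and lectin proteins and to the cytoskeleton. Eef1a1, which delivers tRNA to the ribosome (chromosome 9, 78478449 to 78489151, minus strand), led with 14139 TPM in the lowest sample, 16255 in the median and 19409 in the highest. Lgals1, a secreted galectin that binds matrix glycoproteins (chromosome 15, 78926725 to 78930465, plus strand), had 11774, 14340 and 17253 TPM. S100a4 (chromosome 3, 90603771 to 90606045, plus strand) followed with a mean of 12802 ± 2028 TPM (SD, n = 9). The sample ranges of all 3 overlapped, but within samples Eef1a1 stood above S100a4 in 9 of 9, whereas it exceeded Lgals1 in 7 and Lgals1 exceeded S100a4 in 8. Rps12, a protein of the small ribosomal subunit, was next with 8445 ± 1768 TPM, and Vim, the intermediate filament vimentin, had 7265 ± 294 TPM. Actb (actin), S100a6, Rplp0 of the ribosomal stalk, Anxa2 (a membrane-binding annexin) and Ldha (lactate dehydrogenase) had means from 4929 to 5744 TPM.

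**Figure D1:**
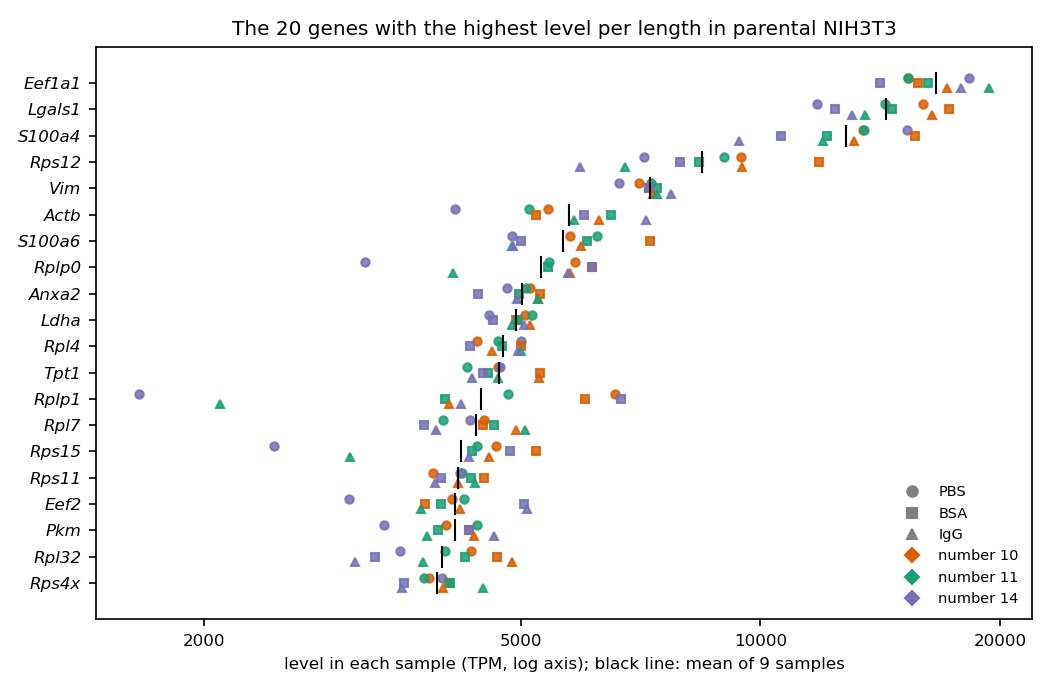
Each point is the level of 1 gene in 1 of the 9 samples in TPM on a log axis, with shape for treatment, colour for title number and a black line at the mean. Eef1a1, Lgals1 and S100a4 lead with overlapping points, and Rplp1 has the widest range, from 1656 TPM in PBS 14 to 6685 TPM in BSA 14.

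Rplp1, the partner of Rplp0 in the ribosomal stalk, showed the widest spread of the 20 genes with the highest TPM. Its level was 1656 TPM in PBS 14 and 2095 TPM in IgG 11, against 4013 to 6685 TPM in the other 7 samples. PBS 14 and IgG 11 also lay apart from the rest on the first principal component, which took 32.5% of the variance of the log2 CPM values.

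By function, the cytosolic ribosomal proteins took the largest part. The 79 listed genes, which build the ribosome's protein shell, held 12.6% of the summed TPM in the lowest sample, 15.4% in the median and 17.8% in the highest (15.1% ± 1.55, SD, n = 9), and 75 of them were present. The lowest share was that of PBS 14, which had the highest share of reads given to no gene. The highest was that of BSA 10, which had the lowest share of such reads. The part of this difference between libraries in the ribosomal share was not tested. Without length the same genes took 6.12% of the counts. Over whole libraries, the counting listed 0.704 to 0.791 alignments to several places per gene count, and these were not counted to any gene. A read may enter that line more than once, so the ratio is not a share of reads lost. A median of 33.9% of the 50-base windows of the ribosomal protein genes occurred in another annotated transcript, and how many of their reads were lost this way was not tested. Rpl26 was absent with 0 counts and Eno1, a glycolytic enolase, with at most 1 count. The related symbol Eno1b, looked up after the values were seen, had 1168 to 5471 counts. Rpl26 and Eno1 share 47.4% and 72.2% of their windows with other transcripts, so their absence cannot be told apart from loss in counting. Of 317 listed genes that were absent, 242 shared no window and 10 shared more than 25%, to which the same limit applies: these 2, Itgam, Hba-a1, Hbb-bs, Serpina1a, Ndufs5, Stat4, Krt8 and Adora3.

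Translation factors held 3.86% ± 0.197 of the summed TPM (SD, n = 9). Structural matrix genes held 3.79% ± 0.185, of which Lgals1 alone made up 1.44% ± 0.188, and the other 50 genes of that list held 2.35% ± 0.295. This separation was chosen after seeing the data. The share of annexins and S100 proteins was 3.06% ± 0.302, and that of the actin cytoskeleton 2.83% ± 0.157. The nuclear-encoded respiratory chain held 2.35% ± 0.191, with Atp5b of the ATP synthase at 2252 TPM on average, and glycolysis held 2.23% ± 0.137. All 44 listed actin cytoskeleton genes and all 34 listed translation factors were present. In the glycolysis list Ldha, Pkm (pyruvate kinase, 4132 TPM), Aldoa (aldolase, 2868 TPM) and Gapdh (2595 TPM) stood highest, and the lactate exporter Slc16a3 was absent. Chaperones took 2.14% ± 0.107, led by the cytosolic Hsp90ab1, and iron storage and redox genes took 1.34% ± 0.109, led by the ferritin chains Ftl1 and Fth1. The ubiquitin and proteasome genes took 0.792% ± 0.0317, with all 34 present.

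**Figure D2:**
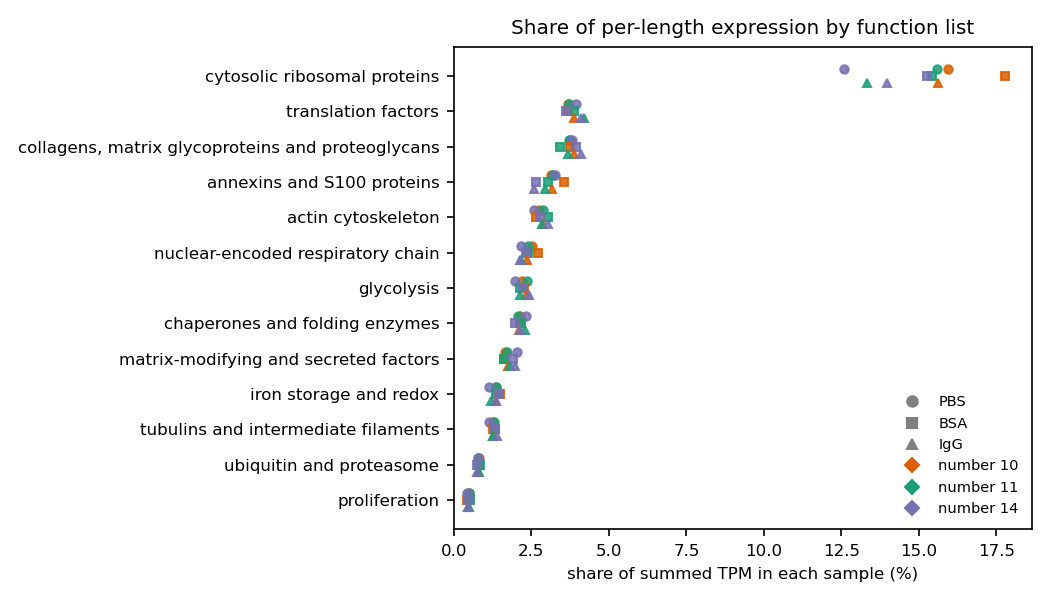
Each point is the share of the summed TPM that the genes of a list held in 1 of the 9 samples, with shape for treatment and colour for title number. The ribosomal protein share runs from 12.6% in PBS 14 to 17.8% in BSA 10, and every other list stays under 5%.

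The matrix genes were those of fibrillar, interstitial and basement membrane matrix together. Lgals1 apart, the leading members were the proteoglycan Bgn (3890 ± 665 TPM, SD, n = 9), the collagen I chains Col1a2 (2646 ± 438 TPM) and Col1a1 (1462 ± 379 TPM), and the collagen III chain Col3a1 (2429 ± 490 TPM). Sparc, a collagen-binding glycoprotein, reached 2518 ± 301 TPM, and the fibronectin gene Fn1 1147 ± 259 TPM. Col1a1 was measured at 1117 TPM in the lowest sample, 1310 in the median and 2184 in the highest. Of 51 listed matrix genes 44 were present, including the type IV collagens Col4a1 (249 TPM) and Col4a2 (147 TPM) and the laminins Lamb1 (142 TPM) and Lamc1 (125 TPM). The laminin Lama1, the fibulin Fbln1 and the collagen Col14a1 were absent. Elastin, Eln, lay in between at 0.0450 TPM. Among matrix-modifying enzymes the collagen cross-linking oxidase Lox stood highest (3297 ± 791 TPM), ahead of the prolyl hydroxylase subunit P4hb (2096 ± 142 TPM). The gelatinase Mmp2 (703 TPM) and its inhibitors Timp1 (906 TPM) and Timp2 (805 TPM) were present, and the binding proteins Igfbp2, Igfbp3 and Igfbp5 were absent.

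The fibroblast label was checked against 20 markers, of which 19 were present. They took 3.54% ± 0.198 of the summed TPM (SD, n = 9). Besides S100a4, Vim and the collagens, the surface glycoprotein Thy1 had 812 TPM in the lowest sample, 835 in the median and 952 in the highest. The platelet-derived growth factor receptor Pdgfra had 212, 307 and 428 TPM, and the transcription factor Prrx1 161, 191 and 281 TPM. The lowest present marker was Lum, the proteoglycan lumican, at 0.689, 2.09 and 4.22 TPM. Fap, a surface protease of activated fibroblasts (chromosome 2, 62500943 to 62574075, minus strand), was absent with at most 1 count in any sample, and only 0.568% of its windows occurred in another transcript. Dcn (decorin) stood at 540 ± 114 TPM, Postn (periostin) at 86.2 ± 36.0 TPM and Twist1 at 47.8 ± 5.42 TPM. Nearly all markers of this list were therefore present, which does not by itself define the cell type. S100a4, the highest of them, shares 56.3% of its windows with other transcripts.

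**Figure D3:**
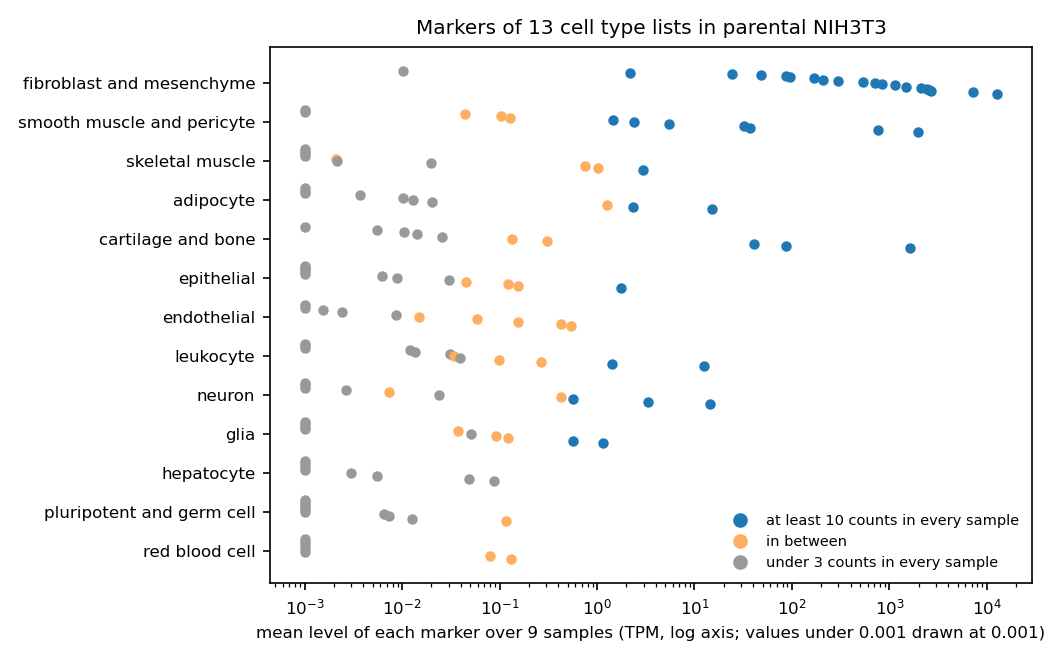
Each point is the mean TPM of 1 marker over the 9 samples on a log axis, grouped by cell type list and coloured by class. The fibroblast list is the only one with most members above 10 TPM, and the lists for hepatocytes, pluripotent and germ cells, endothelium and red blood cells have no present member.

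Some contractile genes were abundant, and markers of most other lineages were not. In the smooth muscle list 7 of 12 were present, but the median member had 1.91 TPM. The smooth muscle actin gene Acta2 had 1619 TPM in the lowest sample, 1939 in the median and 2264 in the highest. Tagln (transgelin) had 755 ± 77.5 TPM. The other present members were lower: Smtn 36.7 TPM, Cspg4 32.4 TPM, Lmod1 5.52 TPM, Mcam 2.37 TPM and Cnn1 1.46 TPM. The smooth muscle coactivator Myocd and Kcnj8 were absent. The heavy chain Myh11 stood at 0.0447 TPM, Des at 0.128 TPM and Rgs5 at 0.103 TPM. Of the cartilage and bone list, Spp1 (osteopontin) had 1641 ± 192 TPM, Sox9 87.5 ± 12.4 TPM and Runx2 41.1 ± 6.91 TPM. The matrix genes of those tissues, Col2a1, Acan and Ibsp, were absent, as were the bone factor Sp7 and the bone phosphatase Alpl. In bulk samples few cells of a type and little RNA per cell cannot be told apart, so these are levels of the culture.

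For the remaining lineages the defining genes were at or near 0. Of 10 skeletal muscle markers only Tnnt3 was present (2.94 TPM), and Myod1, Myf5 and Myog were absent. Of 10 adipocyte markers Lpl (lipoprotein lipase, 15.1 TPM) and Retn (2.33 TPM) were present, while the adipocyte regulator Pparg, Cebpa, Adipoq and Plin1 were absent. Of 12 epithelial markers Krt14 alone was present, at 0.948 to 2.46 TPM, and Epcam, Krt5, Krt8 and Krt18 were absent. Of 12 leukocyte markers the lysosomal Cd68 (12.6 TPM) and the receptor Csf1r (1.44 TPM) were present, Ptprc, the common leukocyte antigen, had 0 to 4 counts, and Cd3e and Lyz2 were absent. Itgam was absent too, with 72.4% of its windows shared, against 26.9% for Krt8. Of 10 neuronal markers Tubb3 (14.4 TPM), Snap25 (3.31 TPM) and Map2 (0.573 TPM) were present. All 8 hepatocyte markers were absent, and none of 10 endothelial, 10 pluripotency and germ cell or 7 red cell markers was present. Among these the hepatocyte gene Serpina1a (67.4%) and the globins Hba-a1 (67.5%) and Hbb-bs (65.8%) share most of their windows with other transcripts.

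Cells of the culture carried the messages of division. Of 39 proliferation genes 36 were present, among them Cdk4 (712 ± 41.8 TPM, SD, n = 9), the replication clamp Pcna (282 ± 36.2 TPM), the topoisomerase Top2a (228 ± 28.9 TPM) and Mki67 (57.7 ± 10.0 TPM). The 3 absent members were all inhibitors of cyclin-dependent kinases, Cdkn1c, Cdkn2a and Cdkn2b. Cdkn2a (chromosome 4, 89274471 to 89294653, minus strand) and its neighbour Cdkn2b (chromosome 4, 89306299 to 89311039, minus strand) had 0 counts in all 9 samples, which allows up to 0.0150 CPM over the samples together, for counting error only. No window of either gene is shared with another transcript. Mtap, a salvage enzyme on the other side of Cdkn2a (chromosome 4, 89137122 to 89181081, plus strand), had 6117 to 8021 counts, and Klhl9, farther away, had 5745 to 8102. The next listed gene beyond Cdkn2b, Dmrta1, had at most 2 counts. The type I interferon genes between Klhl9 and the more distant Focad were absent, with Ifnb1 at 0 counts. Trp53, which encodes p53 (251 ± 28.0 TPM), its target Cdkn1a (112 ± 10.3 TPM) and the related inhibitor Cdkn2c (80.9 ± 10.8 TPM) were present.

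Of 369 listed receptor genes 175 were present, 59 lay in between and 135 were absent. The shares were 47.4% present and 36.6% absent, against 47.6% and 41.9% of the whole table, which includes noncoding genes. Among protein-coding genes alone 54.0% were present and 36.4% absent. Receptor tyrosine kinases bind growth factors, and 27 of 55 were present. Axl, which binds the vitamin K-dependent ligand Gas6, had 451 TPM in the lowest sample, 558 in the median and 664 in the highest. It stood above Pdgfra and above Ryk, a Wnt co-receptor (271 TPM). The collagen receptor Ddr2 had 170 TPM, Fgfr1 127 ± 11.2 TPM, Pdgfrb 96.0 ± 12.4 TPM and Met, the receptor of hepatocyte growth factor, 79.3 TPM. The epidermal growth factor receptor Egfr was low, at 1.59 ± 0.314 TPM. Kit, Flt3, Kdr, Erbb4 and Fgfr3 were absent.

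Receptors of the other growth and patterning pathways differed in how many were present. Of 14 TGF-beta superfamily receptors 11 were present, and the co-receptor Tgfbr3 stood highest (141 ± 21.1 TPM, SD, n = 9), above the signalling receptors Tgfbr2 (45.2 TPM) and Tgfbr1 (21.1 TPM). Of 17 Wnt receptors 13 were present, led by Fzd1 (100.0 ± 15.8 TPM), with the co-receptor Lrp6 at 44.9 TPM and Lgr5 absent. Of 19 Notch and Hedgehog receptors and ligands 8 were present (42.1%). Hedgehog reception was represented by the co-receptor Gas1 (408 ± 92.8 TPM) and the transducer Smo (102 TPM), and the ligand gene Shh was absent. Notch2 (40.8 TPM) exceeded Notch1 (2.07 TPM). Of 26 integrin subunits, which anchor cells to matrix, 18 were present: Itgb1 had 568 TPM in the lowest sample, 660 in the median and 790 in the highest. Its fibronectin-binding partners Itga5 (185 TPM) and Itgav (122 TPM) followed, and Itga4 was absent.

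The most abundant cytokine receptor by far was Il1rl1 (chromosome 1, 40429570 to 40465415, plus strand), with 1056 TPM in the lowest sample, 1245 in the median and 1542 in the highest. Its co-receptor Il1rap had 24.3 TPM. These counts do not separate the membrane form of Il1rl1 from its secreted form. Next were Osmr, for oncostatin M (164 ± 30.5 TPM), Il13ra1 (138 TPM) and the growth hormone receptor Ghr (137 TPM), with 23 of 38 cytokine receptors present. The interferon receptors Ifnar1 (39.8 TPM), Ifnar2 (26.8 TPM) and Ifngr1 (52.7 TPM) were present, and the leukocyte receptors Il7r, Il2ra and Csf3r were absent. Of 23 TNF receptors 12 were present, led by the TWEAK receptor Tnfrsf12a (397 ± 77.1 TPM), and Cd40 and Ngfr were absent. Of 25 innate pattern receptors 12 were present. The lipopolysaccharide receptor Tlr4 had 25.2 ± 3.87 TPM, and the DNA sensor Mb21d1 (cGAS) 19.0 ± 3.06 TPM with its adaptor Tmem173 (STING) at 19.2 ± 2.90 TPM. The RNA sensor Ddx58 had 11.9 TPM, Ifih1 lay in between and Nlrp3 was absent.

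Antibody receptors matter here because an antibody was among the treatments. Trim21 (chromosome 7, 102557921 to 102565486, minus strand) was present at a low level, 5.90 TPM in the lowest sample, 7.33 in the median and 9.75 in the highest, from 142 to 223 counts. Fcgrt, the heavy chain of the neonatal Fc receptor that recycles IgG, had 89.8 ± 18.7 TPM (SD, n = 9), and its light chain B2m, shared with MHC class I, 1243 ± 147 TPM. Of the leukocyte Fc gamma receptors Fcgr4 had 30 to 47 counts (3.31 ± 0.530 TPM), Fcgr2b 2 to 13 counts, Fcgr3 at most 1 and Fcgr1 none. Fcer1g, a signalling chain of Fc receptors, had 4 to 9 counts. The IgE receptors Fcer1a and Fcer2a, the polymeric receptor Pigr and Fcamr were absent.

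G protein-coupled receptors answer lipids, peptides, proteases, amines and nucleotides. Of 31 lipid, peptide and protease receptors 15 were present (48.4%, against 47.6% of the whole table and 54.0% of protein-coding genes). Among them were the sphingosine phosphate receptor S1pr3 (200 ± 20.1 TPM, SD, n = 9), the thrombin receptor F2r (189 ± 19.9 TPM), the lysophosphatidate receptor Lpar1 (167 ± 31.5 TPM) and the prostaglandin receptor Ptgfr (127 TPM). The angiotensin receptor Agtr2 had 43.6 TPM in the lowest sample, 68.7 in the median and 156 in the highest, and Agtr1a was absent. Only 6 of 41 amine and nucleotide receptors were present, led by the adenosine receptor Adora2b (27.4 TPM), and 28 were absent. Chemokine receptors were the scarcest, with 2 of 19 present, the scavenger Ackr3 (69.2 ± 3.98 TPM) and Ccr7 (1.13 TPM).

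Several secreted ligands were set beside their receptors. Hgf (67.5 ± 17.8 TPM, SD, n = 9) and its receptor Met were both present, as were Igf2 (159 ± 58.3 TPM) and Igf1r (51.4 TPM). Fgf7, whose receptor is a form of Fgfr2, had 186 ± 34.4 TPM against 25.8 TPM for Fgfr2. The macrophage growth factor Csf1 had 296 ± 28.9 TPM against 1.44 ± 0.213 TPM for its receptor Csf1r. The chemokines Cxcl12 (108 ± 12.6 TPM) and Ccl2 (138 ± 15.6 TPM) were present while their signalling receptors Cxcr4 and Ccr2 were absent, and Ackr3, which also binds Cxcl12, was present.

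Nuclear receptors are transcription factors switched by small lipophilic ligands, and 24 of 49 were present. The orphan receptor Nr2f2 was highest (204 ± 26.7 TPM), followed by the retinoic acid receptor Rarg (125 TPM), the vitamin D receptor Vdr (100.4 TPM) and the glucocorticoid receptor Nr3c1 (74.6 TPM). Receptors for progesterone (Pgr) and fatty acids (Pparg, Ppara) were absent, and the estrogen receptor Esr1 stood at 0.310 TPM with Esr2 absent.

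**Figure D4:**
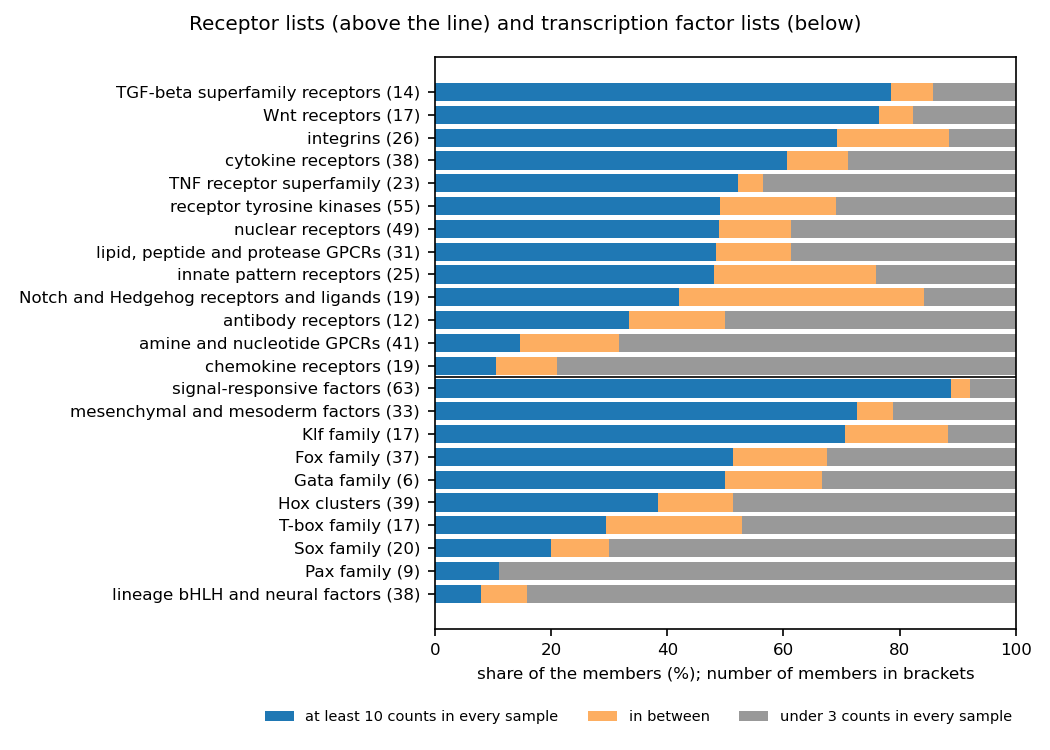
Bars give the share of the members of each receptor list (above the line) and transcription factor list (below) that were present, in between or absent, with the number of members in brackets. Signal-responsive factors, 56 of 63 present, and lineage bHLH and neural factors, 3 of 38 present, mark the extremes of the factor lists.

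Transcription factors split by role. Of 279 listed, 142 were present (50.9%), 28 in between and 109 absent (39.1%). These shares lay near the 47.6% and 41.9% of the whole table and the 54.0% and 36.4% of protein-coding genes. Of 63 signal-responsive factors, which act downstream of pathways shared by most cells, 56 were present. Atf4 had 955 TPM in the lowest sample, 1128 in the median and 1411 in the highest, and the beta-catenin gene Ctnnb1 544 TPM. The AP-1 member Fosl1 (155 ± 23.2 TPM), Hif1a (152 TPM), Myc (106 ± 9.58 TPM) and the Hippo effector Yap1 (97.4 ± 10.2 TPM) were present, and the leukocyte factors Irf4, Irf8 and Runx3 and the hypoxia factor Epas1 were absent. Of 33 mesenchymal and mesoderm factors 24 were present, led by Prrx1 (207 ± 37.0 TPM), Osr1 (151 ± 28.6 TPM), Nfix (91.9 TPM), Snai1 (90.8 TPM) and Zeb1 (85.7 TPM). Tcf21, Scx, Msx1 and Msx2 of the same list were absent. Of 38 genes listed as lineage bHLH and neural factors 3 were present, and 26 had 0 counts in every sample. The list also holds factors of other families, and the 3 present members, Cebpb, Cebpd and Nkx2-5 (2.95 TPM), are among those.

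The developmental families differed in how many members were present. Of 37 Fox genes 19 were present (51.4%, near the 47.6% of the whole table). Among them were Foxm1 (53.7 TPM), a factor of dividing cells, and Foxk2 (53.0 TPM). Among T-box genes Tbx15 (55.8 ± 8.22 TPM) and Tbx18 (30.3 to 51.9 TPM) led and Tbx5 was absent. Pax9 (4.56 TPM) was the 1 present Pax gene of 9, and Sox9 the highest of 20 Sox genes. Hox genes record the position of a cell along the body axis, and 15 of 39 were present (38.5%). In the a cluster 8 of 11 were present, in the c cluster 3 of 9 and in the d cluster 4 of 9, whereas in the b cluster none of 10 was present and 7 were absent. Hoxd8 was highest (72.6 ± 6.27 TPM), then Hoxc6 (30.7 TPM), Hoxa5 (25.8 TPM) and Hoxd4 (21.6 TPM). The present members had numbers 1 to 10, and those numbered 11 to 13 were absent in every cluster.

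The spread between the 9 samples was taken as the coefficient of variation (CV) of the CPM. Over present genes the median CV was 11.6%, and over the 9030 genes with a mean of at least 10 CPM it was 10.4%. Of those 9030 genes 4139 had a CV under 10% and 214 over 25%. At a mean of 1 to 10 CPM the median CV was 17.4%, where counting alone gives 10.4%, and above 1000 CPM it was 11.6%, where counting gives 0.533%. For abundant genes, then, nearly all of the spread was between samples. The lowest CVs were those of Chtop, an RNA export factor (186 to 198 CPM, CV 1.85%), the calcium-binding Rcn1 (CV 2.11%), Mpzl1 (CV 2.13%), the ubiquitin ligase Arih2 (CV 2.27%) and Atp9b (CV 2.45%). Counting alone gives a CV of 1.53% for Chtop, 1.51% for Rcn1, 2.89% for Mpzl1, 2.93% for Arih2 and 2.17% for Atp9b, so Mpzl1 and Arih2 lay below counting noise and their rank is not one of steadiness between samples.

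The most variable gene was Rn45s, the ribosomal RNA precursor, whose CV was 162%. It had 463 to 1452 CPM in 8 samples and 9228 CPM in BSA 14. Lars2, a mitochondrial tRNA ligase, had a CV of 73.4% and Mir6236 one of 82.3%. Both were highest in IgG 10 (773 and 388 CPM) and BSA 14 (625 and 355 CPM), followed by PBS 10 and BSA 10. Rn45s was highest there too, with 245255 counts in BSA 14, 31263 in IgG 10, 26469 in PBS 10 and 18445 in BSA 10. Whether reads of ribosomal RNA were counted to Lars2 or Mir6236 was not tested, so a change of the ligase message itself cannot be read from these values. Zbed6, a repressor of Igf2, had 50.8 CPM in PBS 10 and 52.5 CPM in IgG 10 against 5.26 to 21.2 CPM in the other 7 samples. Nbeal1, the aminopeptidase Lnpep, the ubiquitin ligase Cbl and D830031N03Rik were likewise highest in PBS 10 and IgG 10. The part of these libraries in the variability of the 5 genes was not tested.

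Whether BSA or antibody in the cells moved any gene of the parental line was tested over all 12140 genes that passed the filter on low counts. By edgeR's quasi-likelihood test 0 genes (0%) differed among PBS, BSA and IgG, and the smallest adjusted p was 0.988. An unadjusted p under 0.05 was found for 351 genes, a smaller share than the 0.05 that chance alone gives. With title number as a replicate block 673 genes had such a p, and 0 were called. DESeq2 and limma-voom also called 0. Of the 1272 listed genes 865 entered this test. In simulated counts of the same size the test recovered 86.6% of genes changed 2-fold and 44.8% of those changed 1.5-fold, so small changes could be missed.

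The title numbers, in contrast, separated some genes. By edgeR's quasi-likelihood test 21 of 11992 genes (0.175%) differed among the numbers 10, 11 and 14, and 2 of 858 listed genes were among them, Igf2 and Postn. Igf2, a fetal growth factor, had 198, 209 and 240 CPM in the samples numbered 10, 288, 289 and 323 CPM in those numbered 11, and 398, 434 and 514 CPM in those numbered 14 (adjusted p = 0.00416). The 3 numbers did not overlap, and 75.9% of its windows are shared with other transcripts. Postn, a matrix protein, had 85.4 to 87.2 CPM at number 10, 70.7 to 96.6 CPM at number 11 and 132 to 195 CPM at number 14 (adjusted p = 0.0474). It was higher at number 14 than in all other samples. Bhlhe40, a clock and hypoxia-responsive repressor, had 200 to 217 CPM at number 10 and 90.2 to 124 CPM in the other 6 samples (adjusted p = 0.00498). The hypoxia-responsive Ankrd37 (46.7 to 62.4 against 18.5 to 26.4 CPM, adjusted p = 0.0237) showed the same order, as did the mTOR inhibitor Ddit4 (mean 111 CPM at number 10, 76.1 at 11 and 57.8 at 14, adjusted p = 0.0389). The NF-kB inhibitor Tnfaip3 (mean 18.2, 8.86 and 6.98 CPM, adjusted p = 0.0104) and Ier3 (mean 45.2, 24.7 and 17.8 CPM, adjusted p = 0.0237) were also highest at number 10. The smallest adjusted p of all was that of Proser1 (mean 17.2, 4.42 and 6.33 CPM, adjusted p = 0.00265, edgeR). The noncoding 5330426P16Rik and Senp7 were, like Proser1, highest at number 10 and lowest at 11, and Col4a6 was highest at number 14. The genes described here were picked from the 21 and do not stand for all of them. What the numbers stand for is not given in the labels, so a culture, a day and a library batch cannot be told apart.

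**Figure D5:**
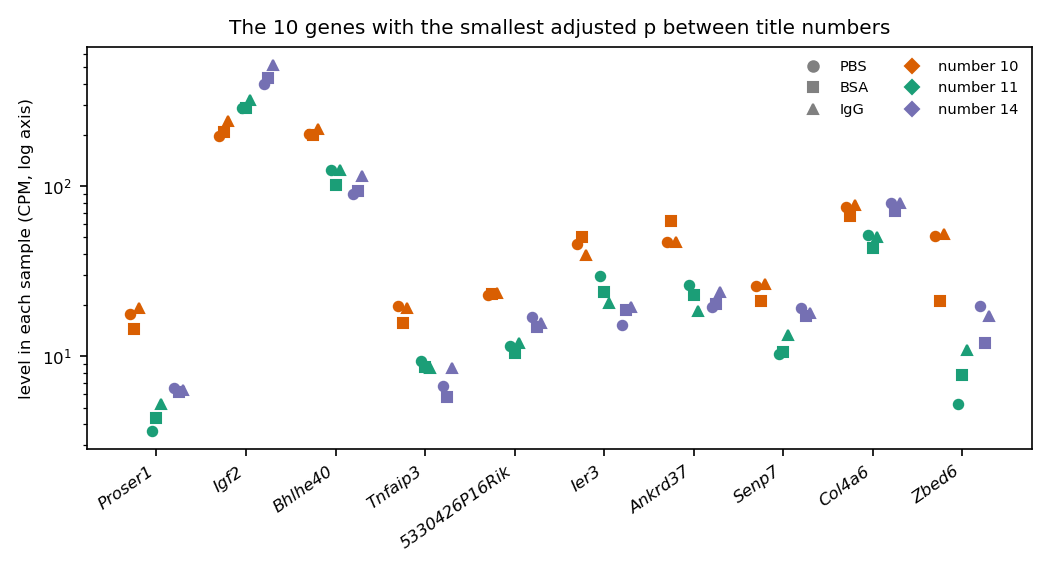
Each point is the CPM of 1 of 9 samples on a log axis for the 10 genes with the smallest adjusted p between title numbers, with colour for number and shape for treatment. Igf2 rises from 198 CPM in PBS 10 to 514 CPM in IgG 14 with no overlap of the numbers, and Bhlhe40, Tnfaip3, Ier3 and Ankrd37 are highest at number 10.

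These calls depended on the test and on single libraries. DESeq2 called 223 genes, and edgeR with no filter on low counts called 78. Leaving out PBS 10 or IgG 10 left 0 calls, leaving out BSA 10, BSA 11 or BSA 14 left 1, 4 and 2, and leaving out PBS 11 or PBS 14 gave 65 and 524. In simulated counts the test recovered 92.5% of genes changed 2-fold with 14 false calls.

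Set beside the TRIM21 line, the parental profile was close in which genes it held and differed in part of its matrix and receptor genes. Of the 11464 genes present in the parental samples 11268 were present in the 9 TRIM21 samples too. The 4 that were absent there were Ddx3y, Eif2s3y, Kdm5d and Uty, all on the Y chromosome, with 49 to 231 counts in parental samples and at most 2 in TRIM21 samples. No gene was absent in the parental and present in the TRIM21 line. By edgeR's quasi-likelihood test 750 of 12140 genes (6.18%) differed between the lines, 581 (4.79%) higher in the parental line and 169 (1.39%) lower. With title number as a replicate block the calls were 936 higher and 526 lower, and with DESeq2 724 and 316. Leaving out the TRIM21 PBS sample numbered 14 gave 1268. Of 44 tested matrix genes 14 were higher in the parental line and 0 lower, with a median log2 difference of 0.24 against -0.01 over all tested genes. Of 196 receptor genes 28 were higher and 10 lower, and of 145 transcription factors 5 were higher and 4 lower.

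Among listed genes Trim21 itself, the gene introduced in the other line, differed most (8.01 ± 1.13 against 1038 ± 63.6 CPM, SD, n = 9 each). The laminin gene Lama2 had 8.93 ± 1.92 CPM in the parental and 0.298 ± 0.144 CPM in the TRIM21 line, a log2 difference of 4.90 ± 0.20 (SE, adjusted p = 5.20e-12, edgeR). Agtr2 had 103 ± 37.7 against 18.7 ± 3.67 CPM, a log2 difference of 2.46 ± 0.19 (SE, adjusted p = 8.06e-08, edgeR), and its parental range of 1234 to 3815 counts did not overlap the 239 to 627 counts of the other line. Lum (log2 difference 2.54), the Wnt antagonist Sfrp2 (2.96), the protease inhibitor Serpine2 (2.24) and the transcription factor Gata6 (2.25) were also higher in the parental line, and all of them were called in each of 23 alternative fits. Egfr, low in the parental line as given above (6.75 ± 1.07 CPM), was lower still in the other (2.57 ± 0.564 CPM, adjusted p = 2.90e-07, edgeR). A derived line differs from its parent in passage and selection as well as in the introduced gene, and these cannot be told apart here.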

How the data were processed

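The deposited values were whole-number counts of reads per gene symbol, 1 table per sample, not normalized. Per the submitters' processing notes the tools were bcl2fastq 2.19.1.403, FastQC 0.11.5, STAR 2.5.1b, HTSeq 0.6.0 and DESeq2 1.6.3 with build mm10, with no roles stated. The annotation and strand setting of the counting are not given in the sources used here, so overlapping and antisense genes may share reads. Lines for reads of no gene, of several genes or of several places stayed out of library sizes, and reads of no gene made up 13.1% to 18.8%. Of 24062 symbols 22750 matched the GENCODE vM21 annotation (GRCm38) directly and 916 by an older symbol, and 396, with 0.322% of the parental counts, did not match and had no length.

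CPM was computed with TMM factors (0.977 to 1.03 in the parental line) in edgeR 4.0.16 (R 4.3.3), and TPM from counts over the union of annotated exons. filterByExpr kept genes for testing (minimum count 10, minimum total 15). Treatments and lines were tested in 1 fit of all 18 samples with a mean for each of 6 groups, and title numbers in the 9 parental samples with treatment as a term. P-values were adjusted by Benjamini-Hochberg with a threshold of 0.05. Tests were run on simulated counts first.

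The 9 samples, the 49 gene lists and the tests were chosen with earlier results of these data known. Named genes were the 20 with the highest TPM, in each list up to 4 with the highest TPM and up to 4 absent, every fibroblast marker and antibody receptor, the 10 most and 5 least variable, those with the smallest adjusted p, and those with the largest change between the lines. Other members named were chosen after their values were seen. Alternatives were DESeq2 1.42.0, limma 3.58.1, other size factors, no filter, other count limits, transcript length, a replicate block and leaving out each sample. A few listed genes are not reported here.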

Additional observations from a re-analysis of the deposited data

Results flagged for a closer look

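Of 72 values checked over the 9 parental samples, 4 had 1 sample far from the others, and chance alone gives about 1 in 20. Rn45s stood at 9228 CPM in BSA 14, against a median of 731 CPM. Vim was lowest in PBS 14, with 5211 CPM against a median of 6325 CPM, and the share of the summed TPM in tubulins and intermediate filaments, the list that holds Vim, was lowest there too (1.125% against a median of 1.27%). Rpl4, a ribosomal protein gene, was highest in BSA 10, with 3300 CPM against a median of 2850 CPM.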

How the results depend on the processing

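The counts of absent and present genes stayed within 1.5 times of their values under every alternative tried. Absent genes numbered 7604 to 11704 under other limits and 10110 to 10205 without a sample, present genes 10981 to 12196 and 11466 to 11492. The median spread of 11.6% was 10.4% among genes with at least 10 CPM, 10.2% after removing treatment and title number (replicate block), and 10.5% to 11.9% without a sample. The ribosomal protein share of 15.1% was 6.12% without length and 14.7% to 15.4% without a sample. Treatment calls stayed at 0 in every fit, replicate block and omissions included, with 191 to 734 genes under an unadjusted p of 0.05. Title number calls, 21, became 36 with no treatment term, 223 with DESeq2 and 78 with no filter, and 0 to 524 without a sample. Line calls, 750, became 1462 with the replicate block, 1040 with DESeq2 and 517 to 1268 without a sample. Same-numbered samples correlated by -0.158 to 0.478 in their deviations from the group means, so the numbers were not taken to pair samples. The numbers still went with 64.8% of the variance of the second principal component and 83.4% of that of the third. Treatment went with 4.27% and 4.21%. The main fits of treatments and lines had no term for the numbers and left this part in their spread. Taking the longest transcript for length moved 19 of 377 TPM values by more than their spread, in 3 of 289 genes (Map2, Mbp and Senp7) by over 1.5 times. The causes were not tested. Depth limits absence: fewer than 3 counts per sample does not exclude a message under 0.113 to 0.154 CPM.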
